A study of Homo sapiens with 8 samples.

Results

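The 9 genes described here are receptors, kinases and transcription factors of interferon signalling. They were chosen by name, with earlier results of these data known, from the 60282 genes of the count table. The receptor chains IFNAR1 and IFNAR2, the kinases JAK1 and TYK2, and the transcription factors STAT2 and IRF9 are members. The interferon regulatory factors IRF1, IRF3 and IRF7 complete the list. All 9 are among the 14073 genes that passed the filter on low values and were tested.

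Type I interferons bind a receptor made of IFNAR1 and IFNAR2, whose cytoplasmic tails hold the kinases TYK2 and JAK1. The kinases phosphorylate STAT2, which joins IRF9 in the factor ISGF3, and ISGF3 binds the interferon-stimulated response element in the promoters of antiviral genes. IRF3 and IRF7 act on the other side of the loop, switching on interferon genes after nucleic acid sensors have fired, and IRF1 is a transcription factor best known from the interferon gamma response. STAT2, IRF9, IRF7 and IRF1 are themselves interferon-inducible genes.

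RNA was measured in SK-UT-1, a long-established human line grown from a leiomyosarcoma of the uterus, a cancer of smooth muscle. The cells received either TP-472, a small-molecule inhibitor of the bromodomain proteins BRD9 and BRD7, at 5 µM for 48 h, or the vehicle DMSO, and nothing else distinguished the groups in the labels. Each group had 4 libraries. Neither the labels nor the study's methods mention added interferon, so all levels are taken as those of unstimulated cultures of 1 cell line. The study's methods describe biological replicates for its experiments in general, but the labels of these libraries do not say whether they came from separate cultures, so p-values measure the spread between these libraries, which may be technical. Vehicle libraries held 32574716 to 36634184 counts and TP-472 libraries 36246466 to 38545695 counts.

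The smooth muscle label was checked against 10 markers, of which 8 passed the filter. Their summed level ran from 453 to 543 CPM (library-size scaled counts, adjusted by the TMM method) in vehicle and from 376 to 385 CPM in TP-472, and the most abundant was CALD1, an actin-binding protein. ACTG2 and MYH11, which define mature smooth muscle, reached at most 5 and 10 counts in any library. Of 10 leukocyte markers, only CD68 passed the filter, PTPRC reached at most 1 count, and CD3E and MS4A1 were at 0 in every library. The summed leukocyte level was 7.84 to 9.44 CPM in vehicle and 11.6 to 14.9 CPM in TP-472, and CD68 made up 7.53 CPM of the vehicle mean and 10.4 CPM of the TP-472 mean. None of 4 endothelial markers passed, and 3 of 5 epithelial markers did. KRT18 was called higher in TP-472-treated cells (7.39 to 15.6 CPM, log2 fold change 1.08) and KRT19 lower (8.88 to 4.93 CPM, −0.85), and their part in the results was not tested. All 4 mesenchymal markers passed, led by VIM, with a summed level of 2669 to 4250 CPM in vehicle and 1947 to 2093 CPM in TP-472. These sums follow their most abundant genes, and single markers moved further. Among the smooth muscle markers DES (log2 fold change −2.36), LMOD1 (−1.84), MYLK (−1.50) and TAGLN (−0.67) were called lower. Among the mesenchymal markers COL1A2 (−2.58) and COL1A1 (−2.35) were called lower and FN1 (1.16) higher. The size for COL1A1 leans on vehicle replicate 3, with 9.25, 3.02, 21.9 and 2.59 CPM in vehicle and 2.07, 1.75, 1.30 and 2.09 CPM in TP-472. The part of these markers in the results was not tested. The share of counts on mitochondrially encoded genes was 0.285% to 0.424% in vehicle and 0.199% to 0.282% in TP-472, without overlap, and its part in the results was not tested.

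One library stands apart. Vehicle replicate 3 had a median Spearman correlation of 0.914 with the other vehicle libraries, whereas vehicle replicates 1, 2 and 4 had 0.988 to 0.989 and the TP-472 libraries 0.993 to 0.997. Its levels also followed the base composition of the transcripts. For each 10 percentage points of GC content, the level in vehicle replicate 3 relative to the mean of all libraries rose by 0.66 on the log2 scale, while the slopes of the other 7 libraries lay between −0.18 and −0.03. The members differ widely in GC content, from 42.3% for IFNAR1 to 59.0% for IRF3, 61.3% for TYK2 and 66.8% for IRF7, so the vehicle mean of the GC-rich members rests partly on this library. Each member is therefore given with all 8 libraries, without vehicle replicate 3, and with the GC trend of every library removed.

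**Figure D1:**
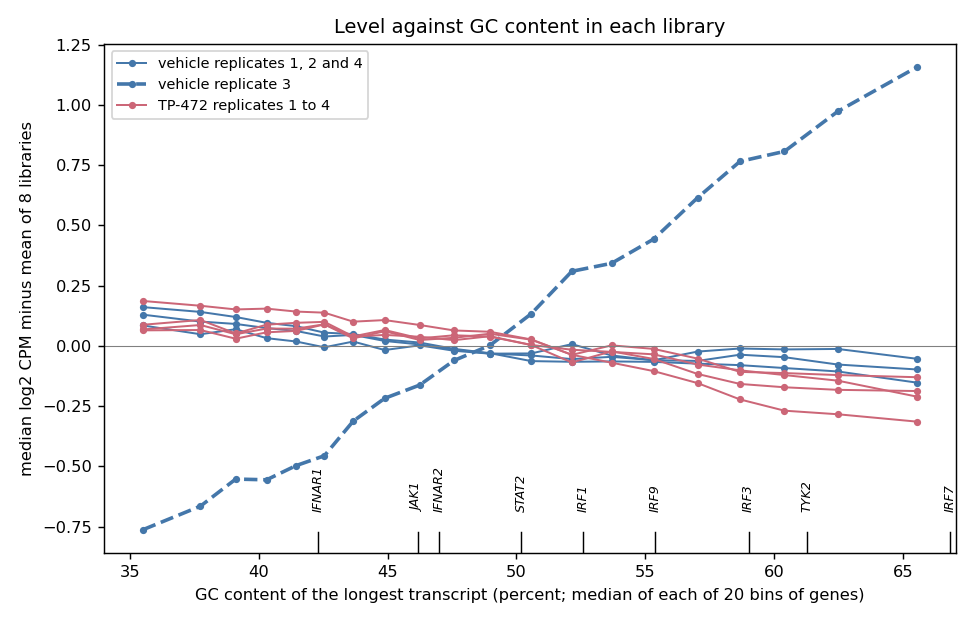
Median log2 CPM of each library minus the mean of the 8 libraries (vertical axis) over 20 bins of genes ordered by the GC content of their longest transcript (horizontal axis, percent), with the GC content of each member marked at the bottom. Vehicle replicate 3, the dashed line, climbs with a slope of 0.66 per 10 percentage points of GC, while the other 7 libraries slope slightly downward.

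Of the 9 members, 4 were called lower in TP-472-treated cells and 0 higher: STAT2, IRF9, IRF7 and TYK2. A gene was called at an adjusted p-value under 0.05 in the quasi-likelihood F test of edgeR and a fold change over 1.5. Among all genes tested, 14.9% were called lower and 12% higher, 26.9% together. For 6 members, TYK2, STAT2, IRF9, IRF1, IRF3 and IRF7, every TP-472 library lay below every vehicle library, against 21.6% of all genes tested. The median log2 fold change of the 9 members was −0.53, beside −0.03 over all genes tested. Without vehicle replicate 3, 3 members were called lower, TYK2 no longer among them, against 13.1% of all genes lower and 25% called either way, and the median of the members was −0.30. In bulk RNA, fewer cells expressing a gene and less RNA per cell cannot be told apart.

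**Figure D2:**
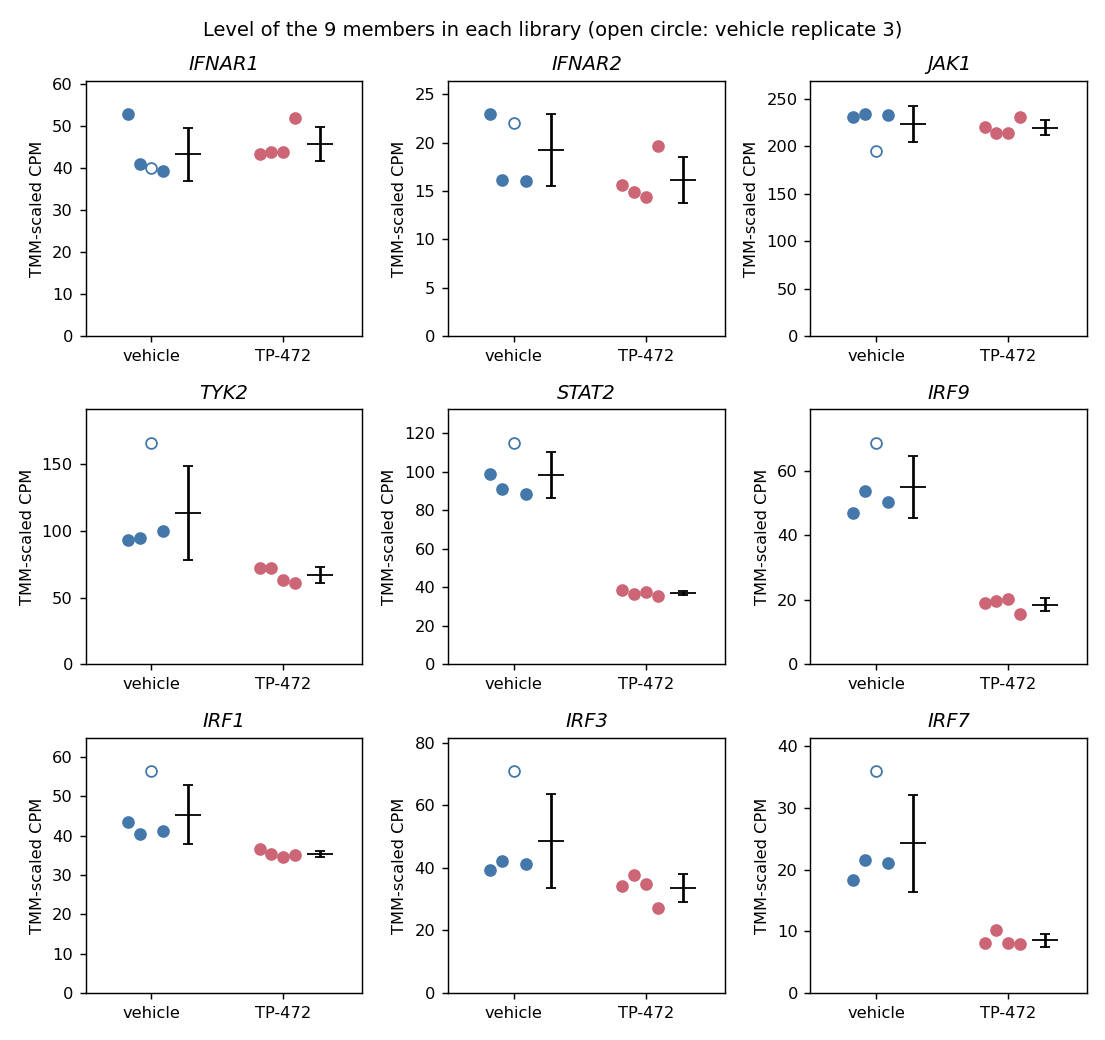
Level of each member in TMM-scaled CPM (vertical axes, from 0) in the 4 vehicle libraries (blue) and the 4 TP-472 libraries (red), with the mean and SD of each group as a bar; the open circle is vehicle replicate 3. STAT2, IRF9 and IRF7 form separate groups even without the open circle, while IFNAR1, IFNAR2 and JAK1 overlap.

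The receptor chains showed no difference past the threshold. IFNAR1 (ENSG00000142166.13, chromosome 21 from 33324477 to 33359862, GRCh38, plus strand), the chain that carries TYK2, stood at 52.8, 41.0, 39.9 and 39.2 CPM in vehicle replicates 1 to 4 and at 43.4, 43.9, 43.9 and 51.9 CPM in TP-472 replicates 1 to 4. One library of each group, vehicle replicate 1 and TP-472 replicate 4, was high and the other 6 lay close together, so the groups overlapped. The means were 43.2 ± 6.43 and 45.7 ± 4.12 CPM (SD, n = 4 each), which is 0.08 ± 0.13 as a log2 fold change (SE, edgeR, adjusted p = 0.636). Without vehicle replicate 3 it was 0.04, and with the GC trend removed it turned to −0.11 (adjusted p = 0.526).

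IFNAR2 (ENSG00000159110.20, chromosome 21 from 33229901 to 33265675, plus strand), the chain with the higher affinity for interferon, was the least abundant member per length in vehicle. Its levels were 22.9, 16.1, 22.0 and 16.0 CPM in vehicle and 15.7, 14.9, 14.4 and 19.7 CPM in TP-472. Vehicle replicates 1 and 3 and TP-472 replicate 4 were high, and the groups overlapped. The means of 19.3 ± 3.72 and 16.2 ± 2.39 CPM gave a log2 fold change of −0.25 ± 0.17 (adjusted p = 0.260), −0.19 without vehicle replicate 3 and −0.36 with the GC trend removed (adjusted p = 0.0983). The annotation also holds AP000295.1, a gene that reads through from IFNAR2 into IL10RB on the same strand and shares 2038 of the 4614 exonic bases of IFNAR2. Its counts were uneven, 178, 18.2, 281 and 0 in vehicle against 0, 0, 16.7 and 1.94 in TP-472, and how reads were divided between the pair is uncertain. With its counts added to IFNAR2 the log2 fold change was −0.48 (adjusted p = 0.130), still not called. The antisense gene IL10RB-DT shares 1803 bases with IFNAR2 on the opposite strand and had at most 4 counts in any library.

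The kinases differed from each other. JAK1 (ENSG00000162434.13, chromosome 1 from 64833229 to 64966504, minus strand), which serves receptors of all interferon types and of many cytokines, was the most abundant member, with 231, 234, 195 and 233 CPM in vehicle and 220, 214, 214 and 231 CPM in TP-472. The lowest value of all 8 was that of vehicle replicate 3, and the groups overlapped. The means were 223 ± 19.0 and 220 ± 7.98 CPM, which is −0.02 ± 0.10 on the log2 scale (adjusted p = 0.871), −0.09 without vehicle replicate 3 (adjusted p = 0.202) and −0.13 with the GC trend removed (adjusted p = 0.0608).

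TYK2 (ENSG00000105397.14, chromosome 19 from 10350529 to 10380676, minus strand), the kinase bound to IFNAR1 and to several interleukin receptors, stood at 93.0, 94.9, 166 and 100 CPM in vehicle and at 72.0, 72.7, 63.0 and 61.3 CPM in TP-472. All TP-472 libraries lay below all vehicle libraries, and vehicle replicate 3 was far above the other 3. The means were 114 ± 35.3 and 67.2 ± 5.94 CPM, and TYK2 fell by 0.76 on the log2 scale (SE 0.20, adjusted p = 0.0168). The size of the decrease depended on vehicle replicate 3 and on GC content. Leaving that library out gave −0.52 ± 0.08 (adjusted p = 3.51e-04) and removing the GC trend −0.38 ± 0.06 (adjusted p = 0.00118), both under the limit of 1.5-fold. Without TP-472 replicate 3 or 4 the size stayed close, at −0.72 (adjusted p = 0.0573) and −0.70 (adjusted p = 0.0529), but the call was lost. TYK2 was called in 17 of 24 alternative fits and negative in all of them.

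STAT2 (ENSG00000170581.14, chromosome 12 from 56341597 to 56360155, minus strand) supplies the transactivation domain of ISGF3. It was measured at 99.1, 91.3, 115 and 88.5 CPM in vehicle and at 38.5, 36.8, 37.4 and 35.6 CPM in TP-472. Every vehicle library lay far above every TP-472 library, and the TP-472 libraries were nearly equal. The mean fell from 98.5 ± 12.0 to 37.1 ± 1.21 CPM, 2.66-fold, or −1.41 ± 0.11 on the log2 scale (adjusted p = 8.05e-05). It was −1.33 without vehicle replicate 3 and −1.44 with the GC trend removed, and the call was made in all 24 alternative fits, in which the estimate ran from −1.47 to −1.27.

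IRF9 (ENSG00000213928.9, chromosome 14 from 24161053 to 24166565, plus strand), the DNA-binding subunit of ISGF3, fell in TP-472-treated cells. It stood at 47.0, 53.6, 68.7 and 50.4 CPM in vehicle and at 18.9, 19.5, 20.3 and 15.5 CPM in TP-472. Vehicle replicate 3 was the highest library, and the groups were well apart without it too. The mean fell from 54.9 ± 9.54 to 18.6 ± 2.09 CPM, 2.96-fold, or −1.57 ± 0.15 on the log2 scale (adjusted p = 2.08e-04). It was −1.45 without vehicle replicate 3 and −1.43 with the GC trend removed.

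The annotation holds AL136295.5 as well, a gene that reads through from RNF31 into IRF9 on the same strand and shares 1838 of the 3794 exonic bases of IRF9. Its level was 15.8 ± 2.66 CPM in vehicle and 16.7 ± 1.99 CPM in TP-472, a log2 fold change of 0.08 ± 0.15 (adjusted p = 0.697). How reads of the shared exons were divided between AL136295.5 and IRF9 is uncertain. With the counts of both added together the decrease of IRF9 was smaller, at −1.0 ± 0.13 on the log2 scale (adjusted p = 7.55e-04), and was still called.

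IRF7 (ENSG00000185507.21, chromosome 11 from 612553 to 615999, minus strand), which amplifies interferon alpha production once induced, is the shortest member by exonic length. Its levels were 18.4, 21.6, 36.0 and 21.1 CPM in vehicle and 8.10, 10.1, 8.07 and 7.87 CPM in TP-472. Vehicle replicate 3 was again the highest, and the groups did not overlap. The mean fell from 24.3 ± 7.94 to 8.55 ± 1.07 CPM, 2.84-fold (log2 fold change −1.5 ± 0.22, adjusted p = 0.00136). IRF7 has the highest GC content of the members, and its decrease was −1.26 ± 0.11 without vehicle replicate 3 and −1.02 ± 0.15 with the GC trend removed, with the call kept in both.

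IRF3 (ENSG00000126456.16, chromosome 19 from 49659569 to 49665875, minus strand), the constitutively made factor that first turns on interferon beta, was not called. It stood at 39.4, 42.3, 70.9 and 41.2 CPM in vehicle and at 34.1, 37.8, 34.8 and 27.1 CPM in TP-472. The groups did not overlap, but vehicle replicate 1 and TP-472 replicate 2 were close to each other, and vehicle replicate 3 stood far above the rest. The means were 48.5 ± 15.0 and 33.4 ± 4.50 CPM, giving −0.53 ± 0.21 on the log2 scale (adjusted p = 0.0690). IRF3 was at −0.30 without vehicle replicate 3 (adjusted p = 0.0310) and at −0.23 with the GC trend removed (adjusted p = 0.04995). Both fits met the limit on adjusted p, the second barely, and were under the limit of 1.5-fold. BCL2L12 shares 734 exonic bases with IRF3 on the opposite strand and had a log2 fold change of 0.03 ± 0.29 (adjusted p = 0.948). Its counts were 496, 608, 1295 and 599 in vehicle and 806, 813, 853 and 745 in TP-472. The value near 0 depends on vehicle replicate 3, since the other vehicle libraries had fewer counts than every TP-472 library.

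IRF1 (ENSG00000125347.14, chromosome 5 from 132481609 to 132490798, minus strand) was not called either, although its libraries did not overlap. It stood at 43.5, 40.4, 56.4 and 41.1 CPM in vehicle and at 36.6, 35.3, 34.6 and 35.0 CPM in TP-472. The difference of the means, 45.4 ± 7.46 and 35.3 ± 0.861 CPM, came to −0.36 ± 0.13 on the log2 scale (adjusted p = 0.0511). The value without vehicle replicate 3 was −0.24 ± 0.06 (adjusted p = 0.00565), a smaller difference with a smaller error, and with the GC trend removed −0.31 ± 0.06 (adjusted p = 0.00363), both under the limit of 1.5-fold.

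IRF1-AS1, transcribed from the opposite strand and sharing 1716 of the 7799 exonic bases of IRF1, was called lower, from 10.4 ± 4.23 to 2.23 ± 0.50 CPM (log2 fold change −2.21 ± 0.31, adjusted p = 0.00112). A further gene on that strand, AC116366.3, shares 469 bases with IRF1 and had a log2 fold change of −1.21 ± 1.11 (adjusted p = 0.409). The study's methods describe strand-specific libraries, while the labels name a TruSeq RNA kit without saying that it marks strand, and the strand setting of the counting is not given in the sources used here. Reads of IRF1 and its antisense partners, of IRF3 and BCL2L12 and of IFNAR2 and IL10RB-DT may therefore not be fully separated, and the values of these pairs are uncertain to that extent. Of the other genes that overlap a member, RAVER2 shares 4 exonic bases with JAK1 and had a log2 fold change of −0.35 (adjusted p = 0.0825), while USF1P1 in IFNAR1, AL606517.1 and AL606517.2 in JAK1 and RNU7-40P in STAT2 share 0 exonic bases.

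**Figure D3:**
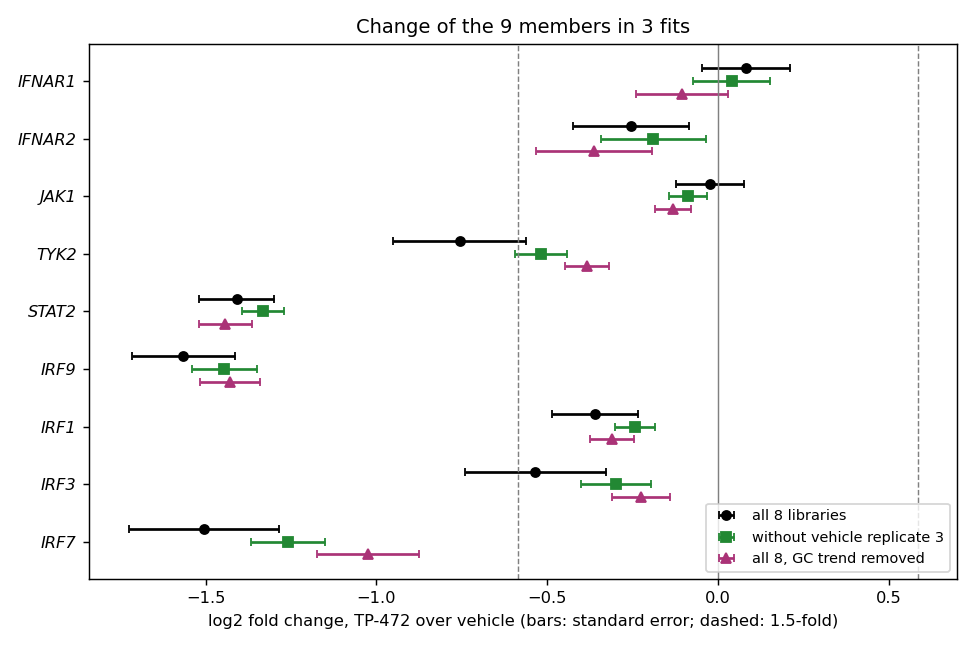
Log2 fold change of each member, TP-472 over vehicle (horizontal axis), with its standard error, from all 8 libraries (circles), without vehicle replicate 3 (squares) and with the GC trend of each library removed (triangles); dashed lines mark 1.5-fold. STAT2, IRF9 and IRF7 lie beyond the line in all 3 fits, TYK2 crosses it, and IFNAR1, IFNAR2, JAK1, IRF1 and IRF3 stay inside it.

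The promoters were searched for 2 strings of letters, that of the response element bound by ISGF3 and that of the gamma-activated site. RefSeq promoter windows of 250 bases before to 50 bases after the start (GRCh38.p14) were found for 6 of the 9 members (9 windows), and IFNAR2, IRF3 and IRF7 had no entry. The core of the interferon-stimulated response element, a pair of GAAA runs with 2 bases of any kind between them on either strand, was in none of the 9 windows and in 3.57% of all 35116 promoters. The gamma-activated site bound by STAT dimers, TTCNNNGAA, was in the windows of IRF9 and IRF1 and in 7.66% of all promoters. No match overlapped another. Bases are counted from the RefSeq start, which lies 250 bases into each window and can differ from the GENCODE gene positions given above. The IRF9 site lies after 24161053, the first base of IRF9 in those positions, and so inside the gene by that annotation. The 2 matches are shown with 10 bases on each side, the site in capitals, for IRF9 at chr14:24161192-24161220 on the plus strand (site at bases −63 to −55 from the start) and for IRF1 at chr5:132490879-132490907 on the minus strand (site at bases −124 to −116):
IRF9: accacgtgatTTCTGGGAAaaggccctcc
IRF1: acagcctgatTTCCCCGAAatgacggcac
IRF9, with the first of these sites, was called lower and IRF1, with the second, was not, while STAT2 and TYK2 were called lower with neither set of letters in their windows. A match is a string of letters, not a measured binding site.

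Within-library ratios compare members without any scaling between libraries. All 6 pairs examined separated the groups without overlap, as did 45.5% of all pairs of tested genes, so separation alone says little about these pairs. Each gave p = 0.0286 in a two-sided exact permutation test, the smallest value that 70 assignments allow, and the same after adjustment over the 6 pairs. TYK2 declined relative to its partner kinase: the log2 ratio of JAK1 to TYK2 was 1.31, 1.30, 0.23 and 1.22 in vehicle and 1.61, 1.56, 1.76 and 1.91 in TP-472, a difference of 0.70, or 0.43 without vehicle replicate 3. STAT2 declined relative to JAK1, from a log2 ratio of −1.18 ± 0.29 to −2.56 ± 0.09 (difference −1.38, or −1.24 without vehicle replicate 3).

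IRF9 and IRF7 declined relative to IRF3. The log2 ratio of IRF9 to IRF3 was 0.21 ± 0.17 in vehicle and −0.85 ± 0.08 in TP-472 (difference −1.06, or −1.14 without vehicle replicate 3). With the counts of AL136295.5 added to IRF9 this difference was smaller, −0.49 in place of −1.06, and that of IRF1 to IRF9 was 0.65 in place of 1.21. The log2 ratio of IRF7 to IRF3 went from −1.0 ± 0.06 to −1.96 ± 0.15. Both genes are GC-rich, and vehicle replicate 3, at −0.98, was among the other vehicle libraries for this ratio. IRF1 and IRF9 went apart, with a log2 ratio of IRF1 to IRF9 of −0.27 ± 0.12 in vehicle and 0.94 ± 0.17 in TP-472, a difference of 1.21 with and without vehicle replicate 3. The ratio of IFNAR1 to IFNAR2 moved by 0.33 on the log2 scale, by 0.23 without vehicle replicate 3 and by 0.52 with readthrough counts added.

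**Figure D4:**
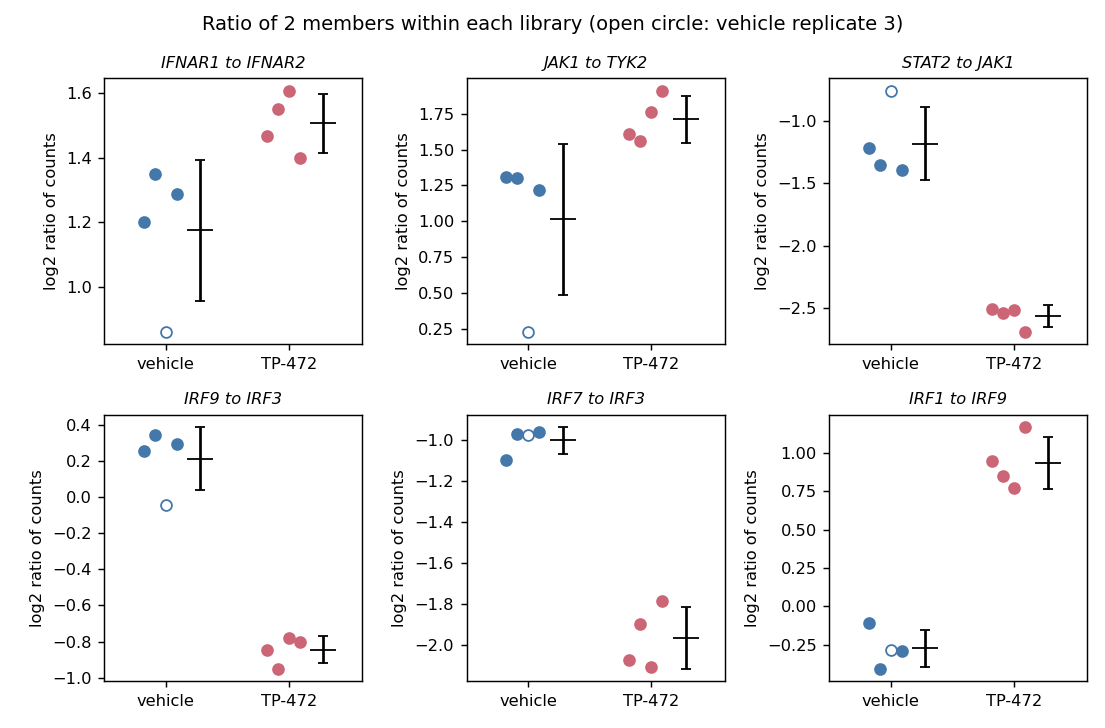
Log2 ratio of the counts of a pair of members within each library (vertical axes) for the 4 vehicle (blue) and 4 TP-472 libraries (red), with mean and SD; the open circle is vehicle replicate 3. In all 6 panels the groups are separate. The open circle lies furthest from the other vehicle libraries for JAK1 to TYK2. It is also the lowest vehicle value for IFNAR1 to IFNAR2 and IRF9 to IRF3 and the highest for STAT2 to JAK1. For IRF7 to IRF3 and IRF1 to IRF9 it lies among the other vehicle libraries.

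Levels can be compared between genes only per length, and CPM per kilobase of exonic sequence was used. In vehicle, JAK1 stood highest at 35.3 ± 3.0, far from the next, TYK2 at 16.8 ± 5.21. The ranges of TYK2, STAT2 at 16.1 ± 1.96, IRF9 at 14.5 ± 2.51 and IRF3 at 12.8 ± 3.96 overlapped from each to the next. Vehicle replicate 3 was the highest library for each of these genes and widened their ranges. IRF7 followed at 9.23 ± 3.02, below IRF3 within every vehicle library although their ranges overlapped. Then came IFNAR1 at 6.86 ± 1.02, IRF1 at 5.82 ± 0.957 and IFNAR2 at 4.18 ± 0.805. Of these neighbours, IRF1 and IFNAR2 did not overlap in their libraries, and the others did. With the counts of AP000295.1 added to IFNAR2, its level rose in vehicle replicates 1 and 3 and the separation from IRF1 was lost. In TP-472 the order was JAK1 (34.8), TYK2 (9.93), IRF3 (8.82), IFNAR1 (7.26), STAT2 (6.07), IRF9 (4.89), IRF1 (4.53), IFNAR2 (3.50) and IRF7 (3.25). STAT2 and IRF9 stood above IRF3 in the vehicle means and below it in the TP-472 means, by this length and by that of the longest transcript. For IRF9 this was lost with the counts of AL136295.5 added, where the log2 ratio of IRF9 to IRF3 in TP-472 was 0.08 ± 0.14 and above 0 in 2 of 4 libraries. For STAT2 by the longest transcript, the TP-472 libraries (10.9 to 11.8) lay inside the range of IRF3 (9.44 to 13.1), so that order is within the spread. By both lengths JAK1 was highest and IFNAR2 lowest in vehicle, and JAK1, TYK2 and IRF3 led in TP-472 in that order. Other placements depend on the length used. With the longest transcript, STAT2 (30.1) and IRF9 (29.9) were above TYK2 (26.1) and IRF1 (8.80) was above IFNAR1 (7.04) in vehicle, and in TP-472 both (11.3 and 10.1) were above IFNAR1 (7.45), while IRF7 (4.17) was above IFNAR2 (3.77).

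The genes whose profiles over the 8 libraries were most like a member were found by the root mean square difference of centred log2 CPM among the 11069 genes that averaged 5 CPM or more. For STAT2 they were C14orf132 (0.0673), KLHL22 (0.0810) and TWIST1 (0.0875), beside a median of 0.758 over all these genes. For IRF9 they were MMP11 (0.0788), DHRS3 (0.0792) and PBXIP1 (0.104), beside a median of 0.843. For IRF7 they were FBLN2 (0.0864), CALHM2 (0.101) and JADE2 (0.111), beside 0.825. For IRF1 they were CAPZB (0.0340), KDM5C (0.0391) and ARHGEF2 (0.0394), beside a lower median of 0.384. The likeness included the shape of vehicle replicate 3. Without it, 1 of the nearest 3 stayed for IRF9 (DHRS3) and for IRF7 (FBLN2), and 0 for STAT2 and IRF1.

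The other genes of the pathway were taken from a list of 60 genes, of which 36 were tested. Of these, 11 were called lower and 2 higher, beside 14.9% and 12% of all genes tested, with a median log2 fold change of −0.22. Without vehicle replicate 3, 8 were called lower and 2 higher, beside 13.1% and 12% of all genes, with a median of −0.09. The groups within the list are small, and their counts are descriptions. Among 6 other receptor chains and kinases, 3 were called lower. JAK3, the kinase of the common gamma chain receptors, had the largest decrease (14.8 ± 4.24 to 3.70 ± 0.449 CPM, log2 fold change −2.0, adjusted p = 3.02e-04), followed by the lambda receptor chain IFNLR1 (−0.85) and its partner IL10RB (−0.60). IL10RB passed the limit of 1.5-fold narrowly and was at −0.53 without vehicle replicate 3, where it was not called. AP000295.1 reads through into IL10RB too. How reads were divided between them is uncertain, and its counts were not added to IL10RB in any fit. The gamma receptor chains IFNGR1 (0.26, adjusted p = 0.434) and IFNGR2 (0.00, adjusted p = 0.989) and JAK2 (−0.08, adjusted p = 0.791) were not called. The GC-poor JAK2 was at −0.27 without vehicle replicate 3 (adjusted p = 0.00751), and the sign of IFNGR2 changed between fits. IFNGR1 was lowest in vehicle replicate 3, at 14.8 CPM, and was at 0.03 without that library (adjusted p = 0.722).

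Of 4 other STAT genes tested, 3 were called lower and 0 higher, beside 14.9% and 12% of all genes tested. Each of the 3 was called without vehicle replicate 3 as well. STAT6, the interleukin 4 signal transducer, fell from 126 ± 29.2 to 66.0 ± 5.50 CPM (log2 fold change −0.93 ± 0.16, adjusted p = 0.00298), and was at −0.76 without vehicle replicate 3. STAT5A and STAT5B, which serve cytokine and growth hormone receptors, had log2 fold changes of −0.87 and −0.76, or −0.75 and −0.70 without that library. STAT3 was not called (−0.20, adjusted p = 0.225), and STAT4 was under the filter.

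Of the other interferon regulatory factors, IRF2, which competes with IRF1 for its sites, was called lower (14.6 ± 2.34 to 9.10 ± 0.627 CPM, log2 fold change −0.69, adjusted p = 0.00667) and was at −0.58 without vehicle replicate 3, just under the limit. IRF5 was not called (−0.26, adjusted p = 0.402, and 0.02 without vehicle replicate 3). Nor was IRF8, which stood at about 1 CPM or less (0.71, adjusted p = 0.117), and IRF4 was under the filter. Of 3 genes for partners of IRF2, 0 were called, beside 26.9% of all genes tested.

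Of 11 negative regulators tested, 2 were called lower and 2 higher, shares close to those of all genes tested. USP18, an interferon-induced protease that blocks IFNAR2, fell from 32.2 ± 1.93 to 16.7 ± 1.55 CPM (log2 fold change −0.95 ± 0.11, adjusted p = 5.02e-04), and vehicle replicate 3, at 31.2 CPM, was inside its group. PIAS3, an inhibitor of STAT3, was called lower (−0.70, adjusted p = 0.0397) and was not called without vehicle replicate 3 (−0.46). PTPN2, a phosphatase of JAK1, rose from 35.8 ± 7.35 to 59.8 ± 0.844 CPM (log2 fold change 0.74, adjusted p = 0.00706), and was at 0.57 with the GC trend removed, just under the limit. SOCS2, a cytokine-induced inhibitor of growth hormone signalling, rose from 1.79 ± 0.194 to 3.09 ± 0.662 CPM (0.79, adjusted p = 0.0147). SOCS3 was not called (0.13, adjusted p = 0.555). It was at 0.30 without vehicle replicate 3 (adjusted p = 0.0261) and at 0.45 with the GC trend removed (adjusted p = 0.00550), both under 1.5-fold. SOCS1, the main inhibitor of JAK1 and TYK2, was under the filter. Its counts were 30, 30, 71 and 22 in vehicle and 17, 28, 32 and 30 in TP-472 (exact permutation test on CPM, p = 0.371).

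Of 8 genes that act upstream of IRF3 and IRF7, 2 were called lower and 0 higher, beside 14.9% and 12% of all genes tested. So small a group allows no reading of the count. STING1, the adaptor of cytosolic DNA sensing, fell from 6.49 ± 2.46 to 1.44 ± 0.236 CPM (log2 fold change −2.17 ± 0.28, adjusted p = 7.57e-04), and MAVS, the adaptor of RNA sensing, from 102 ± 39.7 to 49.2 ± 3.35 CPM (−1.06 ± 0.23, adjusted p = 0.00813). Without vehicle replicate 3, which was the highest library for both, they were at −1.89 and −0.75 and still called.

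**Figure D5:**
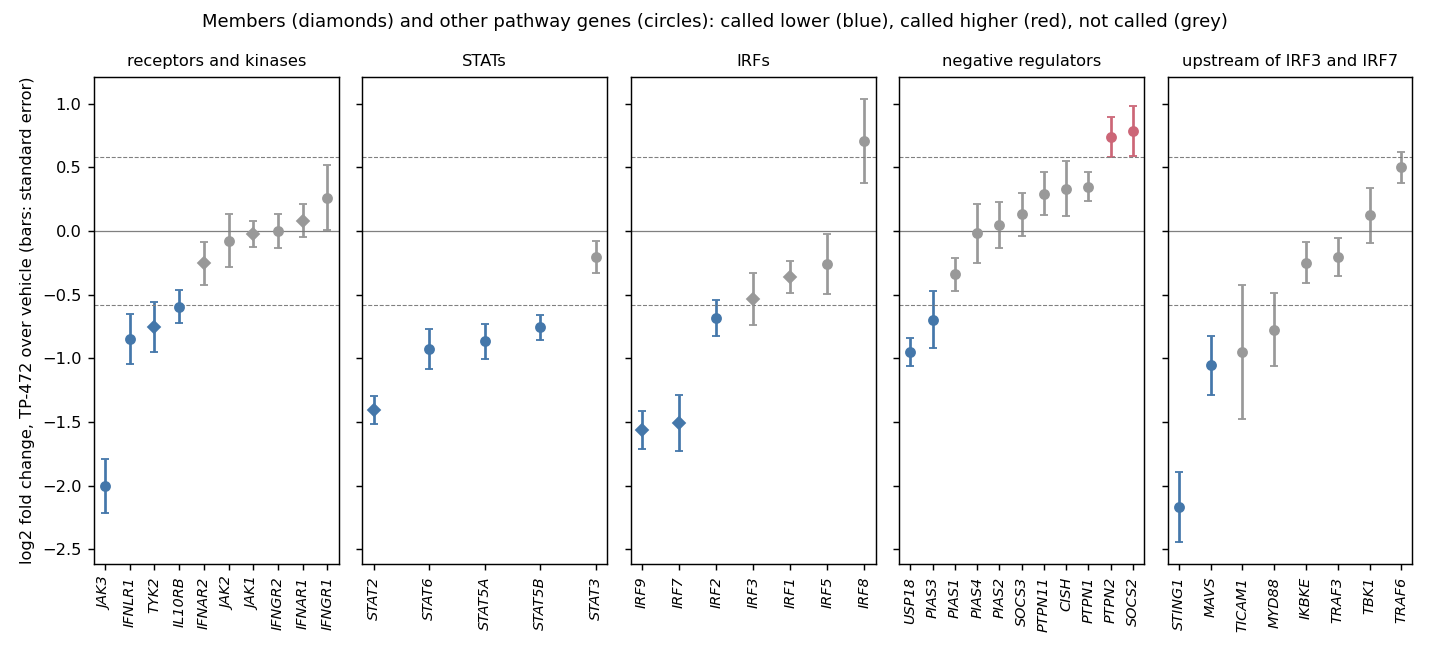
Log2 fold change, TP-472 over vehicle, with standard error (vertical axis) of the members (diamonds) and of the other tested pathway genes (circles) by role; blue marks genes called lower, red called higher, grey not called, and dashed lines 1.5-fold. Members and STAT genes lie mostly below 0, and the negative regulators lie on both sides.

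The ligands of the pathway were almost undetected. Of 21 interferon genes only IFNE, the epsilon interferon of the female reproductive tract, passed the filter, with 206, 110, 169 and 92 counts in vehicle and 74, 65, 49 and 133 in TP-472. TP-472 replicate 4 lay among the vehicle libraries, and the log2 fold change of −0.92 ± 0.35 was not called (adjusted p = 0.0655). It was called in 5 alternative fits, among them that with the GC trend removed (−1.25, adjusted p = 0.0390). The other 20 had at most 5 counts in any library, IFNB1 among them with 3, 2, 1 and 0 counts in vehicle and 4, 5, 0 and 0 in TP-472. A difference in these ligands was not detectable at this depth.

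Downstream, 29 genes known as targets of the response element that ISGF3 binds were examined. Like the members and the other lists, they were chosen with earlier results of these data known, and the list is partial. Of the 28 tested, 26 were called lower and 0 higher, beside 14.9% and 12% of all genes tested, with a median log2 fold change of −1.80. The same numbers, 26 lower and 0 higher, were found without vehicle replicate 3, beside 13.1% and 12% of all genes, with a median of −1.81. The 3 with the highest CPM in vehicle, a rank that does not account for gene length, were LGALS3BP, a secreted glycoprotein (−0.78, adjusted p = 0.0332, and −0.45 without vehicle replicate 3, not called), OAS3, which makes the activator of RNase L (−1.95, adjusted p = 3.00e-04), and EIF2AK2, the double-stranded RNA kinase (−1.07, adjusted p = 4.67e-04). Of 20 genes often named as targets of IRF1 and of interferon gamma, 15 were tested, 6 were called lower and 1 higher, beside the same 14.9% and 12%, with a median of −0.46. Without vehicle replicate 3, 8 were called lower and 1 higher, with a median of −0.60, and 9 and 1 when the GC trend was removed as well, with a median of −0.65. The 3 with the highest CPM of these were PSME2 (−0.46, adjusted p = 0.0272) and PSME1 (−0.51, adjusted p = 0.0325), which form a proteasome activator, and the tryptophan tRNA synthetase WARS1 (−0.37, adjusted p = 0.0241), none past 1.5-fold. PSME1 was called without vehicle replicate 3, at −0.64, as was GBP2, at −0.60. The genes called lower, named after their values were seen, were GBP4 (−3.02), NLRC5 (−1.23), TAPBP (−1.15), GBP1 (−1.09), IDO1 (−1.07) and PSMB9 (−0.96), and each was called without vehicle replicate 3 as well. The gene called higher, also named after its value was seen, was CD274, which encodes the checkpoint ligand PD-L1, from 2.12 ± 0.0948 to 5.19 ± 0.621 CPM (1.29 ± 0.15, adjusted p = 4.52e-04).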

How the data were processed

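SK-UT-1 RNA libraries (4 vehicle, 4 TP-472) were analysed. Per the labels and the study's methods, the authors estimated transcript abundance with Salmon 1.4.0 (submitters' processing notes, GRCh38) and summed it by gene with tximport, so the deposited values are estimated counts, neither normalized nor filtered, and not all whole numbers. Reads were also mapped with STAR.

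Counts were rounded, and genes above 1 CPM in 4 or more libraries were kept (14073 of 60282). Libraries were scaled by TMM, and the groups were compared by edgeR 4.0.16 with its quasi-likelihood F test (R 4.3.3, limma 3.58.1), with Benjamini-Hochberg adjustment over all genes tested. Genes were called at adjusted p under 0.05 and over 1.5-fold, limits that the study's methods give without naming a test. Levels are TMM-scaled CPM, given as mean ± SD over 4 libraries, and fold changes are edgeR estimates with standard errors. Ratios and genes under the filter were compared by exact permutation (Python 3.11.15, scipy 1.17.1).

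GC content is that of the longest GENCODE release 29 transcript and was known for 99.3% of genes tested. It was taken from transcripts because no genome sequence was used here. The trend was removed with a spline through 50 bins per library, as an offset. Gene positions are GENCODE release 29 on GRCh38, and promoters are RefSeq windows. The authors summed counts with another GENCODE release, so lengths and shared exonic bases may differ from those behind the counts.

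Whether counting error or the spread between replicates limits precision more was not tested. Libraries were checked for duplicates, and the smallest mean chi-square per gene of any pair was 16.2, far above that of copies. The calculations were tested on simulated data, in which many 2-fold changes were not called, so a gene that was not called may still have changed.

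The members and gene lists were chosen with earlier results of these data known, and lists are partial. Some genes are not reported here and were left out of the list counts. The genes named are all members, the tested receptors, kinases, STATs and IRFs of the list, its regulators and upstream genes when called (SOCS1, SOCS3 and USP18 in any case), ligands with at least 10 counts in a library, the 3 targets of each kind with the highest CPM, the 3 nearest profiles, and genes overlapping a member. Cell type markers, the gamma targets that were called and CD274 were named outside this rule, after their values were seen. The alternatives included limma-voom, plain or with sample weights, DESeq2 1.42.0, other scalings and filters, unrounded counts, robust estimation, a replicate block, the GC correction, other thresholds and each library left out. A further 2 were added after seeing the data, the GC correction without vehicle replicate 3 and the addition of readthrough counts to members and ratios.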

Additional observations from a re-analysis of the deposited data

Results flagged for a closer look

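Single libraries were compared with the other 3 of their group by the gap to the nearest library over the whole range of the group, judged by Dixon's 95% critical value for 4 values. Of 30 groups examined (9 members and 6 ratios, in vehicle and in TP-472), 9 held such a library, where chance gives about 1 in 20. The groups share libraries and the ratios are built from the members, so they are not independent and the excess over chance is not measured. Of the 9, 4 were vehicle replicate 3. For vehicle replicate 3 they were TYK2 at 166 CPM and IRF3 at 70.9 CPM, both above, JAK1 at 195 CPM, below, and the log2 ratio of JAK1 to TYK2 at 0.23, below. Vehicle replicate 1 was high for IFNAR1 at 52.8 CPM and low for the log2 ratio of IRF7 to IRF3 at −1.10. TP-472 replicate 4 was high for IFNAR1 at 51.9 CPM and low for the log2 ratio of STAT2 to JAK1 at −2.69. TP-472 replicate 2 was high for IRF7 at 10.1 CPM. The part of sample handling in these values was not tested.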

How the results depend on the processing

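STAT2, IRF9 and IRF7 were called lower in all 24 alternative fits, and TYK2 in 17. TYK2 lost its call with sample quality weights, in the 3 fits that remove the GC trend, and without vehicle replicate 3. The call was also lost without TP-472 replicate 3 (−0.72, adjusted p = 0.0573) or TP-472 replicate 4 (−0.70, adjusted p = 0.0529), where the size stayed close to −0.76. IFNAR1 changed sign in the 3 GC fits (−0.11, −0.088 with a replicate block, −0.0048 without vehicle replicate 3). IFNGR2 turned negative with DESeq2 (−0.00165), total-count (−0.023), upper-quartile (−0.017) or RLE scaling (−0.00337), quality weights (−0.12), no filter (−0.00945), filterByExpr (−0.00225), a 5 CPM filter (−0.011), without vehicle replicate 3 in the GC fit (−0.094), and in 4 of 8 fits leaving out 1 library (range −0.094 to 0.064). IRF5 turned positive with quality weights (0.00420), the GC fits (0.010, 0.015 with the block, 0.081 without vehicle replicate 3) and without vehicle replicate 3 (0.021, the highest of the fits without 1 library, whose lowest was −0.37). A test against 1.5-fold left 594 genes lower and 529 higher, 3 members lower (not TYK2), 3 and 0 other pathway genes, and 2 gamma targets lower. DESeq2 called 2678 genes higher and 2 gamma targets higher, as did no filter (2). A 5 CPM filter left 1 pathway gene and 0 gamma targets higher, the GC fits 1 pathway gene, and no fold limit 4. Leaving out 1 library gave 1321 (TP-472 replicate 3; 1345 without replicate 2) to 2325 genes lower. Per longest transcript, vehicle CPM per kilobase were 44.2 (JAK1), 26.1 (TYK2), 30.1 (STAT2), 29.9 (IRF9), 8.80 (IRF1) and 16.9 (IRF3). Of the nearest 3 profiles, 0 (STAT2), 1 (IRF9), 1 (IRF7) and 0 (IRF1) stayed without vehicle replicate 3. Replicate numbers did not pair the samples: deviations of same-numbered libraries correlated at −0.055, 0.12, −0.17 and −0.18, and none was closest to its own number. With the replicate block, 1555 genes were lower and 1500 higher, and 4 members were lower. Depth limits the genes under the filter. With readthrough counts added, the log2 ratio differences were 0.52 (IFNAR1 to IFNAR2), −0.49 (IRF9 to IRF3) and 0.65 (IRF1 to IRF9). Causes were not tested.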
